A study of Mus musculus with 14 samples.

Results

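The genes described here are 9 receptors of myeloid cells and B cells that are grouped as inhibitory: Cd72, the sialic acid-binding receptors Cd22, Cd33, Siglec1 and Siglece, and Cd200r1, Sirpa, Cd300lf and Pirb. They were taken by name, and all 9 had an array row annotated to that symbol alone, among 19938 genes measured in this way. Cd72 was selected on its measured signal, for its large rise after ischaemia, so its change after surgery is given as a description without a test. The other 8 receptors were listed by function, with earlier results of these data known.

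Microglia, the resident macrophages of the brain, were sorted from the cortex on the operated side. The mice were male C57BL/6J, aged 12 to 14 weeks, and the RNA was hybridised to Affymetrix Mouse Gene 1.0 ST arrays. The 4 groups were TLR4-/- mice after ischaemia and reperfusion (I/R, n = 3, arrays B, C and D), TLR4-/- mice after sham surgery (n = 3, arrays A, B and D), wild-type mice after I/R (n = 4, arrays A to D) and wild-type mice after sham surgery (n = 4, arrays A to D). In the I/R groups the middle cerebral artery was closed for 15 min with a filament and tissue was taken after 72 h of reperfusion, and all mice were under isoflurane. The titles of the I/R samples carry the letters IPC, which the labels do not explain, and the treatment label, which gives ischaemia and reperfusion, was followed here. The TLR4-/- mice lack Toll-like receptor 4, a sensor of bacterial lipopolysaccharide and of molecules released by damaged tissue. Neither the construction of the allele nor the sort markers are given here. The labels do not tie each sample to its own animal, so p-values here measure only a spread between samples that may be technical.

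Inhibitory receptors of this kind hold back signals from activating receptors. Many carry short tyrosine motifs in their cytoplasmic tails, known as ITIMs, which after phosphorylation by Src-family kinases recruit the phosphatases SHP-1 (Ptpn6), SHP-2 (Ptpn11) or SHIP-1 (Inpp5d). Siglecs read sialic acid on neighbouring or own cell surfaces, Sirpa reads CD47 and Cd200r1 reads CD200, and in the brain such contacts with neurons are known to restrain microglia. Many of these receptors have an activating relative that pairs with the adaptors Tyrobp or Fcer1g.

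Values are log2 signals, on which a step of 1 is a 2-fold difference, and each gene is compared only with itself between groups, since probes of different genes differ in brightness. The background level was taken as 4.67, the 95th percentile of the mean signals of 1027 olfactory receptor genes. Array medians lay between 4.93 and 5.12, and arrays of a group correlated at r between 0.9814 and 0.9934 over all genes. Of the 14 arrays 8, all 3 TLR4-/- I/R arrays among them, correlated most closely with an array of the other genotype after the same surgery. TLR4-/- I/R array D was closest to wild-type I/R array C (r = 0.9915, against at most 0.9898 in its own group). Sham array C of wild type was closest to TLR4-/- sham array A (0.9916, against at most 0.9865 in its own group), and wild-type sham array D to TLR4-/- sham array D (0.9909, against at most 0.9889). Results were also computed without TLR4-/- I/R array D and wild-type sham array C together, and without each array singly. The row of Tlr4 averaged 8.02 ± 0.39 in TLR4-/- I/R arrays and 8.32 ± 0.16 in TLR4-/- sham arrays (SD, n = 3 each), against 8.30 ± 0.15 in wild-type I/R and 8.78 ± 0.15 in wild-type sham arrays (SD, n = 4 each). It did not pass between genotypes after I/R (limma adjusted p = 0.634) or sham (limma adjusted p = 0.920), and since the deleted part of the gene is not given here, the row cannot serve as a check of genotype.

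Promoter windows of 250 bases before and 50 after the transcription start were given for 6 of the 9 receptors (Cd72, Cd22, Cd33, Siglece, Cd300lf and Pirb) in a RefSeq table of GRCm38.p6. The windows of the 2 receptors with the highest changes after I/R are shown because both hold GAGGAAGT, the core letters bound by PU.1, a transcription factor that macrophages and B cells share. The Cd72 window is chr4:43454577-43454876 and the Cd300lf window chr11:115133943-115134242, both on the minus strand and printed 5′ to 3′ along the gene, with the match in capitals. In Cd72 the match lies on the opposite strand and so reads in reverse complement.
Cd72: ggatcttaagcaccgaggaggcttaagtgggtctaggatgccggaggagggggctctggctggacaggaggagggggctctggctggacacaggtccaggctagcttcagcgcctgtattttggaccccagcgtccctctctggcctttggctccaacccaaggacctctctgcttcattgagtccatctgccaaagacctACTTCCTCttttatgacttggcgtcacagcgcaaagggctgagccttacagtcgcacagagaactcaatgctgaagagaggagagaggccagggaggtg
Cd300lf: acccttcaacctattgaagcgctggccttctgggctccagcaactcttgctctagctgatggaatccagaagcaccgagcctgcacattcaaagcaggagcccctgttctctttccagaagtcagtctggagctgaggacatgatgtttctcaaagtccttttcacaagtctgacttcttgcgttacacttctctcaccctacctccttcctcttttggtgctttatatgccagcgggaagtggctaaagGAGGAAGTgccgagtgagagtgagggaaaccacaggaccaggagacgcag
Across 32851 windows of this length, 3.2% held GAGGAAGT on either strand, against 3 of the 6 receptor windows, the third being that of Pirb. The interferon-stimulated response element (GAAA, any pair of bases, GAAA) was in 0 of the 6 and in 3.44% of all windows. The gamma-activated site TTCNNNGAA was in 0 of the 6 and in 8.3% of all. The AP-1 site (TGA, C or G, TCA) was in 0 and in 5.2%, the C/EBP site (TT, a purine, C, a purine, CAA) in 0 and in 2.08%, and an NF-kB site in 1, that of Pirb, and in 16%. The matches did not overlap each other. A match describes letters in a window and shows no binding, and the absence of a match covers these letters in this window only.

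After I/R, Cd72 and Cd300lf were many-fold higher in both genotypes, Siglec1 and Cd22 were moderately higher, and Siglece and Cd33 were lower. Cd72 is left out of the counts of receptors called after I/R. In TLR4-/- microglia 3 of the other 8 receptors were higher (5.04% of all genes) and 2 lower (3.13% of all genes) at a limma adjusted p under 0.05. In wild-type microglia the same receptors were called, 3 higher (6.15% of all genes) and 2 lower (3.63% of all genes). The median change of all genes was -0.03 in TLR4-/- and -0.06 in wild type. Without TLR4-/- I/R array D and wild-type sham array C, 5 of the 8 were called in TLR4-/- and 4 in wild type, where the call of Cd33 was lost. In bulk arrays, fewer cells of a type and less RNA per cell cannot be told apart. Where groups are called separate or not overlapping below, the share of all genes that separate in the same way was not counted. With so few arrays, groups can also separate without a difference, so separation is given as a description only.

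**Figure D1:**
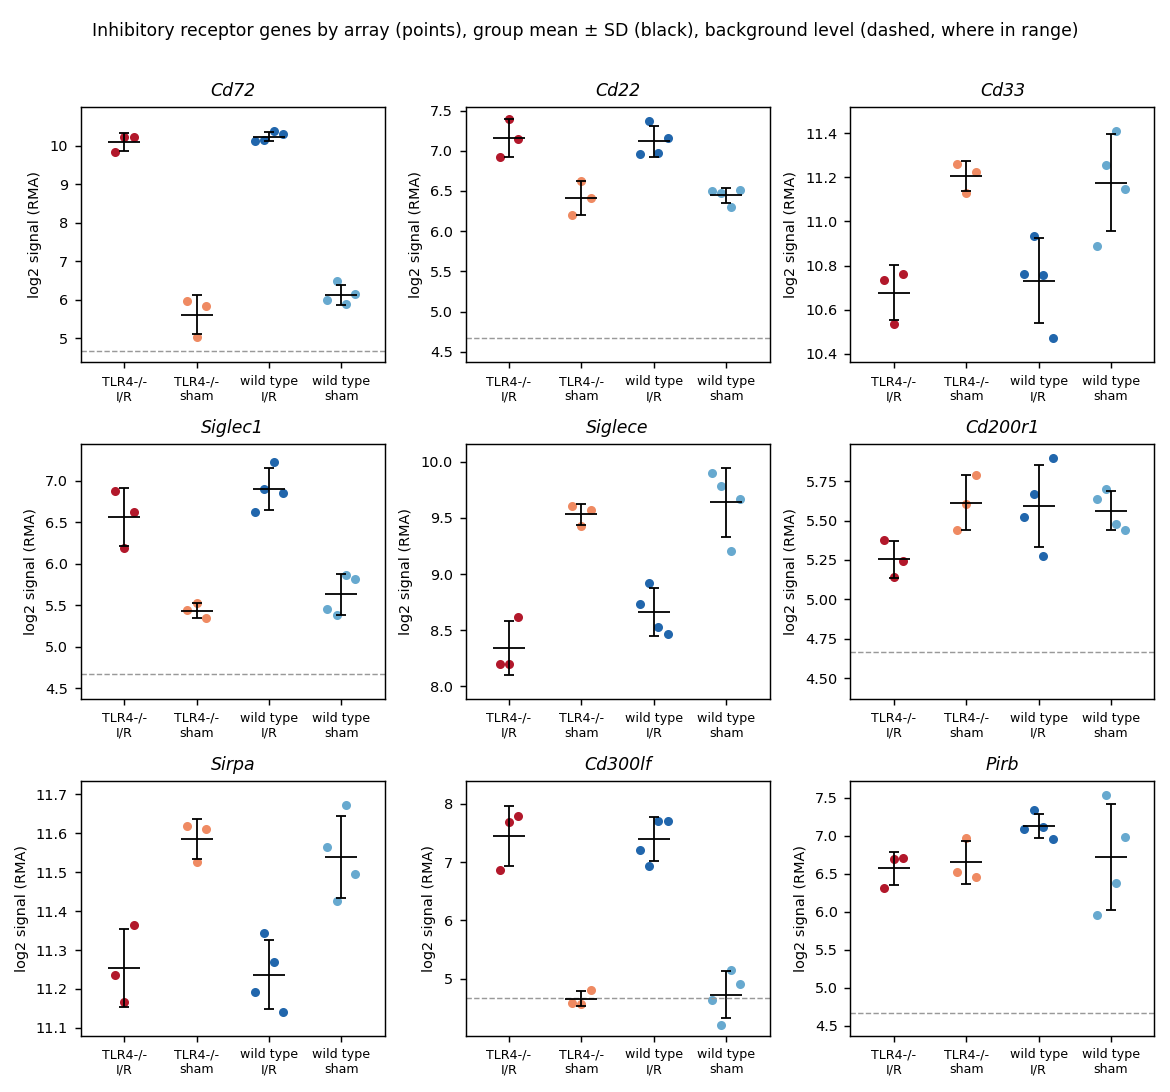
Log2 RMA signal of the 9 receptors (vertical axes, each with its own range) on every array, by genotype and surgery, with group means and SD in black and the background level of 4.67 dashed where it falls in range. Cd72, Cd300lf, Siglec1 and Cd22 are higher on every I/R array than on any sham array of the same genotype. Siglece and Sirpa are lower in the same way, and Pirb in wild-type sham is the most scattered group.

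Cd72 is a C-type lectin-like ITIM receptor, best known from B cells, where it binds the semaphorin CD100 (Sema4d) and recruits SHP-1. Its signal was 9.83, 10.23 and 10.21 in TLR4-/- I/R arrays B, C and D, against 5.97, 5.03 and 5.83 in TLR4-/- sham arrays A, B and D. In wild type it was 10.13, 10.14, 10.38 and 10.30 in I/R arrays A to D, against 5.99, 6.48, 5.89 and 6.15 in sham arrays A to D. Every I/R array lay more than 3 log2 units above every sham array, and the I/R arrays of both genotypes covered a narrow common range, while TLR4-/- sham array B was the lowest of all 14. All sham arrays were above the background level. The change was 4.48 on the log2 scale in TLR4-/- (SE 0.21, 95% interval 4.04 to 4.93, 22.4-fold), rank 3 of 19938 genes ordered by change. In wild type it was 4.11 (SE 0.18, 95% interval 3.73 to 4.50, 17.3-fold), rank 6. Cd72 was chosen for its large rise, so high ranks follow from that choice. The intervals take no account of the choice and serve as no test.

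Cd72 was chosen for its rise, and the genotype in which that rise was read is not given here. The genotype comparisons of Cd72 use the same arrays, so they may not be independent of that choice. The TLR4-/- change exceeded the wild-type change by 0.37 (SE 0.28, 95% interval -0.22 to 0.96), which did not pass (limma adjusted p = 1). After I/R the TLR4-/- mean was 10.09 ± 0.23 (SD, n = 3) and the wild-type mean 10.24 ± 0.12 (SD, n = 4), a difference of -0.15 (95% interval -0.56 to 0.27, limma adjusted p = 0.843). After sham surgery the TLR4-/- mean was 5.61 ± 0.51 (SD, n = 3) and the wild-type mean 6.12 ± 0.26 (SD, n = 4). That difference was -0.52 (SE 0.20, 95% interval -0.93 to -0.10), with an unadjusted limma p of 0.0184 and a limma adjusted p of 0.920. The sham groups overlapped, and the difference varied between -0.70 and -0.22 as single arrays were left out, with -0.22 reached without TLR4-/- sham array B.

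Cd300lf, also called CLM-1, is an ITIM receptor of myeloid cells that binds lipids exposed on dying cells. Its signal was 6.86, 7.69 and 7.80 in TLR4-/- I/R arrays B, C and D, against 4.58, 4.57 and 4.81 in TLR4-/- sham arrays A, B and D. In wild type it was 7.21, 6.94, 7.71 and 7.71 in I/R arrays A to D, against 4.63, 4.21, 5.14 and 4.91 in sham arrays A to D. All I/R arrays were well above background, whereas 1 of the 3 TLR4-/- sham arrays and 2 of the 4 wild-type sham arrays lay above it, so the folds are measured against signal in the background range. Cd300lf rose by 2.80 in TLR4-/- (SE 0.26, 95% interval 2.24 to 3.36, 6.96-fold, limma adjusted p = 2.42e-06). It rose by 2.67 in wild type (SE 0.23, 95% interval 2.19 to 3.15, 6.36-fold, limma adjusted p = 4.34e-07). With sham arrays below the background level held at that level, the group means differed 6.67-fold in TLR4-/- and 5.83-fold in wild type. These 2 folds are point estimates without an interval. The difference between the fitted changes was 0.13 (95% interval -0.61 to 0.87, limma adjusted p = 1).

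Siglec1, or sialoadhesin, is a large adhesion Siglec of macrophages that lacks an ITIM and is known to be induced by interferon. In TLR4-/- it had 6.88, 6.19 and 6.62 in I/R arrays B, C and D, against 5.44, 5.53 and 5.34 in sham arrays A, B and D. Wild-type I/R arrays A to D had 6.62, 6.90, 7.23 and 6.85, against 5.46, 5.39, 5.86 and 5.82 in wild-type sham arrays A to D. The surgery groups did not overlap in either genotype, and all arrays were above background. It rose 2.18-fold in TLR4-/- (log2 change 1.13, SE 0.19, limma adjusted p = 0.000847) and 2.41-fold in wild type (log2 change 1.27, SE 0.16, limma adjusted p = 4.07e-05). After I/R the TLR4-/- mean of 6.56 ± 0.35 (SD, n = 3) stood against a wild-type mean of 6.90 ± 0.25 (SD, n = 4), and the difference of -0.34 did not pass (limma adjusted p = 0.618).

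Cd22 is the classical Siglec of B cells, with several ITIMs, and is also found on microglia. The TLR4-/- I/R arrays B, C and D had 6.93, 7.40 and 7.14, against 6.20, 6.62 and 6.42 in TLR4-/- sham arrays A, B and D. Its wild-type values were 6.96, 7.37, 6.98 and 7.16 in I/R arrays A to D, against 6.50, 6.47, 6.30 and 6.51 in sham arrays A to D. No I/R array fell to the level of a sham array. It rose 1.67-fold in TLR4-/- (log2 change 0.74, SE 0.15, limma adjusted p = 0.00465) and 1.59-fold in wild type (log2 change 0.67, SE 0.13, limma adjusted p = 0.00263). Both calls held in all alternatives tried.

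Siglece is an ITIM-bearing Siglec of mouse neutrophils, monocytes and microglia. It read 8.20, 8.20 and 8.62 in TLR4-/- I/R arrays B, C and D, against 9.60, 9.43 and 9.57 in TLR4-/- sham arrays A, B and D. The wild-type I/R arrays A to D read 8.74, 8.92, 8.53 and 8.46, against 9.90, 9.78, 9.20 and 9.67 in the sham arrays A to D. All I/R arrays were below all sham arrays. It fell by 1.19 in TLR4-/- (SE 0.18, 2.29-fold lower, limma adjusted p = 0.000319) and by 0.98 in wild type (SE 0.15, 1.97-fold lower, limma adjusted p = 0.000376). In both genotypes its change stood near the bottom of the 19938 genes ordered by change, at rank 19921 in TLR4-/- and 19899 in wild type. Siglec1 and Siglece therefore changed in opposite directions in both genotypes.

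Cd33 binds sialic acid and in humans is linked to Alzheimer's disease risk, while the tail of the mouse protein differs from the human one. It lies on chromosome 7, as do Cd22, Siglece and Pirb, and 4 genes separate it from Siglece in the RefSeq table. The signal of Cd33 was 10.73, 10.53 and 10.76 in TLR4-/- I/R arrays B, C and D, against 11.26, 11.13 and 11.22 in TLR4-/- sham arrays A, B and D. For wild type it was 10.76, 10.93, 10.76 and 10.47 in I/R arrays A to D, against 10.89, 11.26, 11.41 and 11.15 in sham arrays A to D. The groups were separate in TLR4-/- and overlapped in wild type, where I/R array B exceeded sham array A. Cd33 fell by 0.53 in TLR4-/- (SE 0.14, 1.44-fold lower, limma adjusted p = 0.0316) and by 0.44 in wild type (SE 0.12, 1.36-fold lower, limma adjusted p = 0.0315). Both calls depended on single arrays. The TLR4-/- call was lost when any 1 of the sham arrays A, B and D or the I/R arrays B and C was left out (limma adjusted p between 0.0514 and 0.131), and the wild-type call when any 1 of the sham arrays B, C and D or the I/R arrays A, C and D was left out (limma adjusted p between 0.055 and 0.12). The wild-type call was also lost without TLR4-/- I/R array D and wild-type sham array C together (limma adjusted p = 0.102) and when the model held the wild-type arrays alone (0.0682).

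Sirpa, the receptor for CD47 that restrains phagocytosis through SHP-1 and SHP-2, had the smallest change among the receptors whose surgery groups were separate in both genotypes. It had 11.23, 11.17 and 11.36 in TLR4-/- I/R arrays B, C and D, against 11.62, 11.53 and 11.61 in TLR4-/- sham arrays A, B and D. Wild-type I/R arrays A to D had 11.19, 11.34, 11.27 and 11.14, against 11.56, 11.43, 11.67 and 11.50 in wild-type sham arrays A to D. All I/R arrays were below all sham arrays, yet the changes of -0.33 in TLR4-/- (SE 0.11, limma adjusted p = 0.0802) and -0.30 in wild type (SE 0.09, limma adjusted p = 0.0552) did not pass. Both passed with trend and robust settings in limma (limma adjusted p = 0.0265 in TLR4-/- and 0.0158 in wild type). The TLR4-/- change also passed with array weights (0.0461) and the wild-type change without dim genes (0.0439).

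Averaged over both genotypes, a comparison added after these values were seen, 3 of the 8 receptors other than Cd72 were higher after I/R (9.61% of all genes) and 3 lower (8.52% of all genes). The third of the lower ones was Sirpa, at -0.32 (SE 0.07, limma adjusted p = 0.00528), beside Siglece at -1.08 (SE 0.12, limma adjusted p = 3.96e-06) and Cd33 at -0.49 (SE 0.10, limma adjusted p = 0.0016). Leaving out single arrays kept the adjusted p of Cd33 at or below 0.00655 and that of Sirpa at or below 0.0177 in this comparison.

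**Figure D2:**
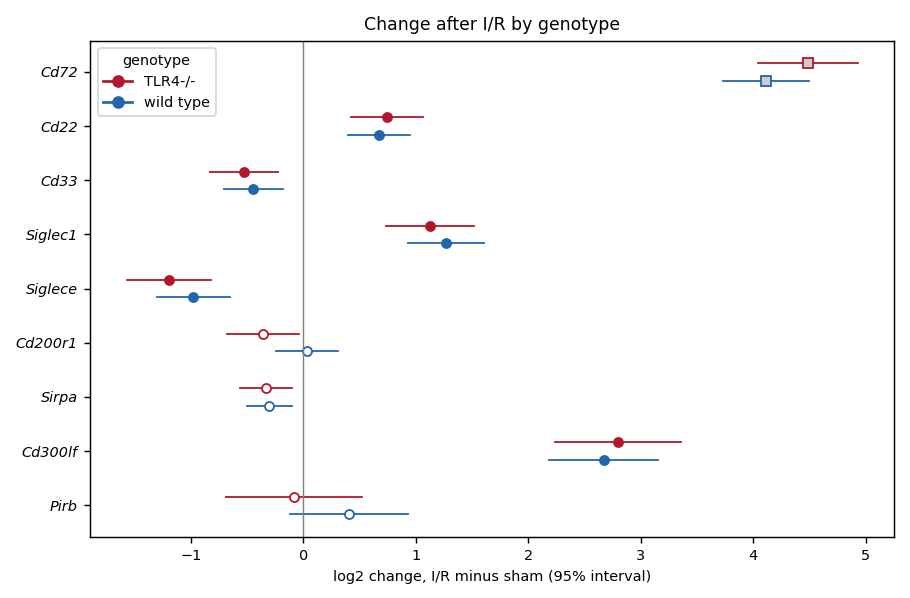
Log2 change, I/R minus sham, with 95% intervals (horizontal axis) for the 9 receptors, TLR4-/- above wild type in each pair. Filled circles passed at a limma adjusted p under 0.05, open circles did not, and grey squares mark Cd72, which is shown as a description; the intervals of the genotypes overlap for every receptor.

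Cd200r1, which answers the neuronal surface protein CD200 and signals through Dok adaptors in place of ITIMs, did not pass in either genotype. It had 5.38, 5.14 and 5.24 in TLR4-/- I/R arrays B, C and D, against 5.44, 5.61 and 5.79 in TLR4-/- sham arrays A, B and D. In wild type it had 5.52, 5.67, 5.27 and 5.90 in I/R arrays A to D, against 5.64, 5.70, 5.48 and 5.44 in sham arrays A to D. The groups were separate in TLR4-/- and overlapped in wild type. Its change was -0.36 in TLR4-/- (SE 0.15, limma adjusted p = 0.181) and 0.03 in wild type (SE 0.13, limma adjusted p = 0.926). The difference between the changes, -0.39 (95% interval -0.81 to 0.03), did not pass either (limma adjusted p = 1).

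Pirb is an ITIM receptor for MHC class I molecules, known in neurons and glia also as a receptor for myelin-derived inhibitors of axon growth. The TLR4-/- I/R arrays B, C and D gave 6.31, 6.69 and 6.70, against 6.52, 6.97 and 6.45 in TLR4-/- sham arrays A, B and D. The wild-type I/R arrays A to D gave 7.09, 7.33, 7.11 and 6.96, against 5.95, 7.54, 6.37 and 6.99 in the wild-type sham arrays A to D. The wild-type sham arrays included both the highest and the lowest value of all 14 arrays. The change was -0.08 in TLR4-/- (SE 0.29, limma adjusted p = 0.928) and 0.41 in wild type (SE 0.25, limma adjusted p = 0.358). Without wild-type sham array B the wild-type change was 0.68 and passed (limma adjusted p = 0.0495), and without wild-type sham array A it was 0.16 and did not pass (limma adjusted p = 0.718). A further 2 array rows carry Pirb together with other symbols, 6 in all, so the signal of Pirb cannot be told apart there from that of its relatives. These rows changed by 0.46 and 0.38 in TLR4-/- and by 0.48 in both cases in wild type, and none passed (limma adjusted p between 0.194 and 0.469).

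No difference between genotypes passed for any of the 9 receptors at this number of arrays. In the difference between the I/R changes, 0 of 9 passed in limma (0% of all genes), and 0 of 9 had an unadjusted p under 0.05, as 762 of all 19938 genes did. Between TLR4-/- and wild type after I/R, 0 of 9 passed (0.0201% of all genes). There Cd200r1 alone had an unadjusted p under 0.05, as 1689 of all 19938 genes did. Its difference was -0.34 (95% interval -0.64 to -0.04), with an unadjusted limma p of 0.0285 and a limma adjusted p of 0.561. Between TLR4-/- and wild type after sham, 0 of 9 passed (0.00502% of all genes), and Cd72 alone had an unadjusted p under 0.05, as 1045 of all 19938 genes did. These calls are scarce over the whole array, so a count of 0 says little about the receptors. The intervals give the sizes that remain possible: among the differences between the changes, the interval of Sirpa was the narrowest (-0.33 to 0.28) and that of Pirb the widest (-1.29 to 0.31).

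After I/R, Pirb was the receptor whose genotypes did not overlap. The share of all genes that separate in this way was not counted, so the separation is a description only. All 3 TLR4-/- I/R arrays (6.57 ± 0.22, SD, n = 3) were below all 4 wild-type I/R arrays (7.12 ± 0.15, SD, n = 4). The difference was -0.56 (SE 0.27, 95% interval -1.12 to 0.01), with an unadjusted limma p of 0.054 and a limma adjusted p of 0.596. Siglece differed by -0.32 (95% interval -0.67 to 0.03, limma adjusted p = 0.618) with overlapping groups.

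**Figure D3:**
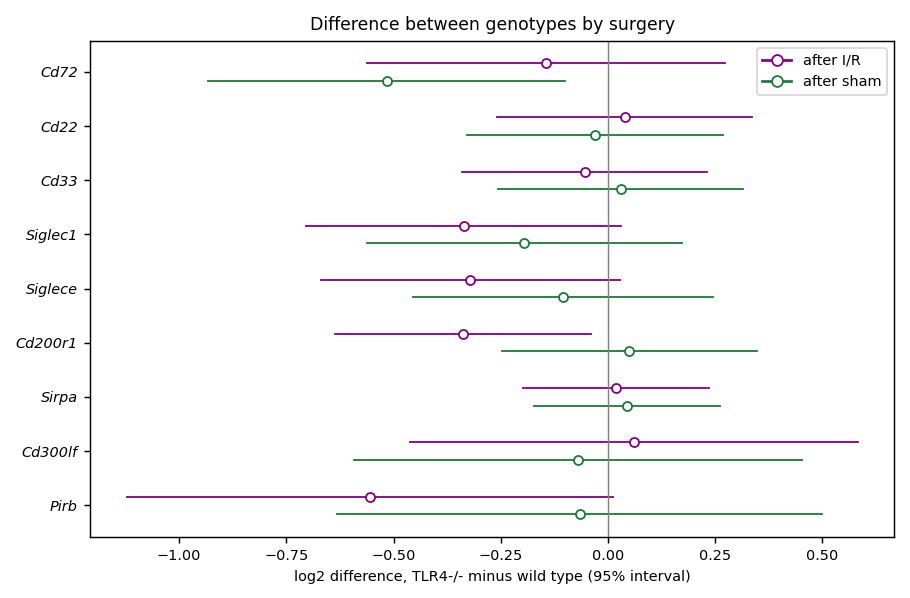
Log2 difference, TLR4-/- minus wild type, with 95% intervals (horizontal axis) for the 9 receptors, after I/R (above) and after sham (below). None of the differences passed, and the intervals of Cd72 after sham and of Cd200r1 after I/R are the ones that leave out 0.

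A list of 22 other inhibitory receptors, all measured, also moved both ways after I/R. In TLR4-/- 6 were higher and 4 lower (list median 0.22), and in wild type 7 were higher and 4 lower (list median 0.05). Of all genes, 5.04% were called higher and 3.13% lower in TLR4-/-, and 6.15% higher and 3.63% lower in wild type. The same shares apply to the I/R counts of every list below. The lists were chosen with earlier results known, so their counts are no test against these shares. Lilrb4a, an ITIM receptor of the same family as Pirb, rose by 2.70 in TLR4-/- (SE 0.16, limma adjusted p = 3.59e-08) and by 2.36 in wild type (SE 0.14, limma adjusted p = 7.26e-09). Cd244a, a SLAM-family receptor of natural killer and myeloid cells, rose by 2.59 in TLR4-/- and by 2.64 in wild type (SE 0.20 and 0.17), and its wild-type sham mean lay in the background range. Milr1, an ITIM receptor known from mast cells, rose by 2.11 in TLR4-/- (SE 0.23) and by 1.86 in wild type (SE 0.20).

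Lilr4b rose by 2.30 in TLR4-/- (SE 0.31) and by 1.77 in wild type (SE 0.27). It is a near relative of Lilrb4a, and how far the probes of each tell them apart is not given here. The 4 that fell were the same in both genotypes, and their names were added after the values were seen. Pecam1, an adhesion receptor with ITIMs, fell by 1.09 in TLR4-/- (SE 0.18) and by 0.93 in wild type (SE 0.16). Vsir, the checkpoint receptor VISTA, fell by 0.89 in TLR4-/- and by 0.85 in wild type (SE 0.16 and 0.14). Cd300a, a relative of Cd300lf with ITIMs and likewise a receptor for lipids of dying cells, fell by 0.74 in TLR4-/- and by 0.75 in wild type (SE 0.12 and 0.11). Clec4a2 fell by 0.62 in TLR4-/- and by 0.57 in wild type (SE 0.17 and 0.15). Within the CD300 family, Cd300lf and Cd300a thus changed in opposite directions in both genotypes.

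Pdcd1, the checkpoint receptor PD-1, had the widest gap between genotypes in this list. It averaged 6.99 ± 0.45 in TLR4-/- I/R and 5.60 ± 0.40 in TLR4-/- sham arrays (SD, n = 3 each), against 7.72 ± 0.19 in wild-type I/R and 5.11 ± 0.04 in wild-type sham arrays (SD, n = 4 each). It rose by 1.39 in TLR4-/- (SE 0.21, limma adjusted p = 0.000343) and by 2.61 in wild type (SE 0.18, limma adjusted p = 3.09e-08). The difference between the changes was -1.23 (SE 0.27, 95% interval -1.81 to -0.65), with an unadjusted limma p of 0.000367, and did not pass over all genes (limma adjusted p = 0.523).

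**Figure D4:**
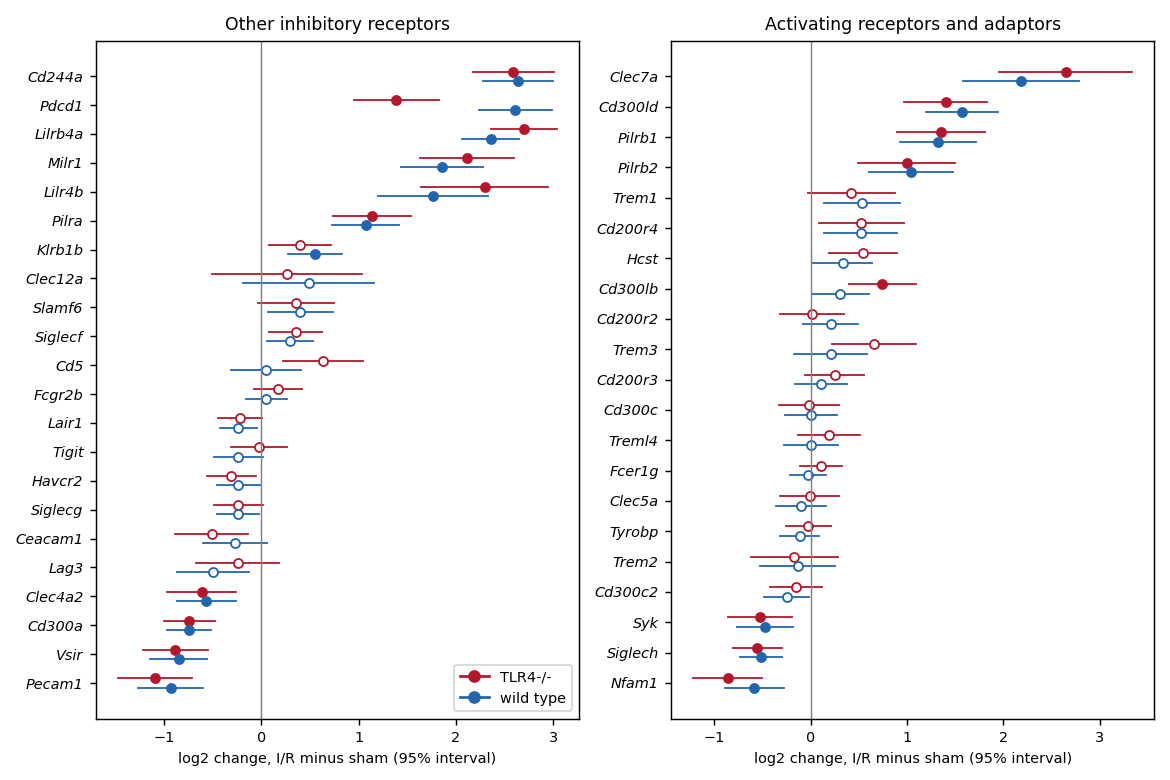
Log2 change, I/R minus sham, with 95% intervals (horizontal axes) for 22 other inhibitory receptors (left) and 21 activating receptors and adaptors (right), TLR4-/- above wild type in each pair. Filled circles passed at a limma adjusted p under 0.05; both panels hold receptors that rose and receptors that fell, and Pdcd1 shows separate intervals for the genotypes.

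Activating relatives and their adaptors were measured for 21 of 26 listed genes. In TLR4-/- 5 were higher and 3 lower (list median 0.19), and in wild type 4 were higher and 3 lower (list median 0.11). Clec7a, the beta-glucan receptor Dectin-1, rose by 2.64 in TLR4-/- (SE 0.33, limma adjusted p = 4.64e-05) and by 2.19 in wild type (SE 0.28, limma adjusted p = 5.33e-05). Cd300ld, an activating relative of Cd300lf, rose by 1.40 in TLR4-/- and by 1.57 in wild type (SE 0.20 and 0.18). Pilrb1 rose by 1.35 in TLR4-/- and by 1.32 in wild type (SE 0.22 and 0.19), while its inhibitory partner Pilra rose by 1.14 in TLR4-/- and by 1.07 in wild type (SE 0.19 and 0.16). Pilrb2 rose by 1.00 in TLR4-/- and by 1.04 in wild type (SE 0.24 and 0.21).

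The genes of this list that fell were Nfam1, Siglech and Syk in both genotypes. Siglech, a microglial Siglec that signals through Tyrobp, fell by 0.55 in TLR4-/- (SE 0.12, limma adjusted p = 0.00802) and by 0.51 in wild type (SE 0.10, limma adjusted p = 0.00384). Tyrobp and Fcer1g did not pass in either genotype. The difference between the changes passed for 0 of the 22 inhibitory and 0 of the 21 activating genes.

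Downstream of the receptors, 16 of 18 listed signalling genes were measured, and 2 were higher and 3 lower in each genotype (list median -0.12 in TLR4-/- and -0.15 in wild type). Ptpn6, which encodes SHP-1, averaged 9.82 ± 0.25 in TLR4-/- I/R and 9.92 ± 0.10 in TLR4-/- sham arrays (SD, n = 3 each), against 9.98 ± 0.05 in wild-type I/R and 9.94 ± 0.08 in wild-type sham arrays (SD, n = 4 each). It did not pass in either genotype (limma adjusted p = 0.75 in TLR4-/- and 0.868 in wild type). Inpp5d, the SHIP-1 gene, fell by 0.46 in TLR4-/- (SE 0.11, limma adjusted p = 0.0187) and by 0.35 in wild type (SE 0.10, limma adjusted p = 0.032). Pag1, an adaptor that holds the Src-inhibiting kinase Csk, fell by 0.76 in TLR4-/- and by 0.62 in wild type (SE 0.17 and 0.14). Sh2b3, the adaptor LNK, fell by 0.39 in both genotypes (SE 0.10 in TLR4-/- and 0.09 in wild type).

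The 2 that rose were Src-family kinases. Fgr rose by 2.04 in TLR4-/- (SE 0.22, limma adjusted p = 1.26e-05) and by 1.68 in wild type (SE 0.19, limma adjusted p = 1.41e-05). Fyn rose by 0.58 in TLR4-/- (SE 0.15, limma adjusted p = 0.0217) and by 0.92 in wild type (SE 0.13, limma adjusted p = 0.000123).

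Of 13 genes listed with the ligands, 10 were measured in the microglia, which need not be the cells that present them. H2-K1, H2-D1 and Angptl2 were not measured. The only one called was Thbs1, the thrombospondin-1 gene, listed because its product binds CD47, which is itself the ligand of Sirpa. Thbs1 rose by 1.05 in TLR4-/- (SE 0.18, limma adjusted p = 0.00119) and by 0.76 in wild type (SE 0.16, limma adjusted p = 0.00406). Sema4d, which encodes the Cd72 ligand, changed by -0.27 in TLR4-/- (limma adjusted p = 0.195) and by -0.07 in wild type (0.747). Among 19 genes that make, attach or remove sialic acid, the ligand of Siglecs, 3 were higher and 3 lower in TLR4-/- (list median -0.09), and 4 higher and 5 lower in wild type (list median 0.03). The sialyltransferase gene St3gal1 rose by 1.10 in TLR4-/- (SE 0.18) and by 0.78 in wild type (SE 0.15), whereas St3gal6 fell by 0.55 in TLR4-/- (SE 0.12) and by 0.58 in wild type (SE 0.10). St8sia1 rose by 0.55 in TLR4-/- (SE 0.11) and by 0.47 in wild type (SE 0.10). St3gal2 fell by 0.38 in TLR4-/- (SE 0.10, limma adjusted p = 0.0253) and changed by -0.09 in wild type (0.591). St3gal5 changed by -0.27 in TLR4-/- (limma adjusted p = 0.282) and fell by 0.53 in wild type (SE 0.12, 0.0072).

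Markers of other cells were set beside these changes because Cd72 and Cd22 are best known from B cells. Of 16 B cell genes 14 were measured, and 6 of them (Cd79b, Pax5, Ighm, Blnk, Cd37 and Bank1) had a mean above background in each group. Cd79b, part of the B cell receptor, averaged 8.30 ± 0.44 in TLR4-/- I/R and 8.06 ± 0.11 in TLR4-/- sham arrays (SD, n = 3 each), against 8.37 ± 0.27 in wild-type I/R and 8.28 ± 0.40 in wild-type sham arrays (SD, n = 4 each). The group means of Pax5, the B cell lineage factor, lay between 5.13 and 5.26, and those of Ighm, the IgM heavy chain, between 5.17 and 5.36. None of these 3 passed after I/R (limma adjusted p between 0.638 and 0.847). Cd79a, Ms4a1 (CD20), Blk, Cr2, Fcer2a, Ebf1, Fcrla and Spib were below the background level in every group. None of the 14 rose. Bank1 fell by 1.01 in TLR4-/- (SE 0.21, limma adjusted p = 0.00514) and by 1.27 in wild type (SE 0.18, limma adjusted p = 0.000135), and Blnk fell by 0.43 in TLR4-/- (SE 0.12, limma adjusted p = 0.0371). The mean of the list per array ran from 5.35 to 5.39 in TLR4-/- I/R and from 5.47 to 5.57 in TLR4-/- sham arrays, against 5.28 to 5.40 in wild-type I/R and 5.42 to 5.58 in wild-type sham arrays. The part of B cells in the receptor changes was not tested.

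Part of the monocyte list rose after I/R, as did Cd72, Cd300lf and Siglec1. Of 11 measured, 6 rose in TLR4-/- and 8 in wild type, and 0 fell. The mean of the list per array ran from 6.23 to 6.32 in TLR4-/- I/R and from 4.48 to 4.70 in TLR4-/- sham arrays, against 6.25 to 6.72 in wild-type I/R and 4.65 to 4.79 in wild-type sham arrays. Fn1 rose by 5.40 in TLR4-/- and by 5.53 in wild type (SE 0.20 and 0.17), and Vim by 2.91 in TLR4-/- and by 3.20 in wild type (SE 0.19 and 0.16). S100a4 rose by 1.48 in TLR4-/- and by 1.27 in wild type (SE 0.13 and 0.11), and Cd44 by 1.35 in TLR4-/- and by 1.59 in wild type (SE 0.15 and 0.13). Ms4a4c rose by 2.89 in TLR4-/- and by 2.66 in wild type (SE 0.28 and 0.24). Ccr2, the chemokine receptor that defines classical monocytes, averaged 5.55 ± 0.12 in TLR4-/- I/R and 5.77 ± 0.25 in TLR4-/- sham arrays (SD, n = 3 each), against 6.34 ± 0.26 in wild-type I/R and 5.94 ± 0.11 in wild-type sham arrays (SD, n = 4 each). It did not pass in TLR4-/- (-0.22, limma adjusted p = 0.501) or in wild type (0.41, limma adjusted p = 0.0763). Plac8 rose by 3.52 in TLR4-/- (SE 0.44, limma adjusted p = 4.75e-05). In TLR4-/- the other uncalled genes of the list were Chil3 (0.86, limma adjusted p = 0.191), S100a6 (0.58, 0.0774), F10 (-0.17, 0.547) and Hp (-0.14, 0.635). In wild type 3 of the 11 were not called, Ccr2 among them. The part of monocytes in the receptor changes was not tested.

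Microglial markers were high on every array. Of 11 measured, 6 fell in TLR4-/- and 8 in wild type, and 0 rose, with list means per array from 10.89 to 11.00 in TLR4-/- I/R and 11.34 to 11.46 in TLR4-/- sham arrays, against 10.87 to 11.09 in wild-type I/R and 11.31 to 11.42 in wild-type sham arrays. Siglece, Cd33 and Siglech fell beside them. Tmem119, a marker of microglia against other macrophages, fell by 0.54 in TLR4-/- and by 0.52 in wild type (SE 0.12 and 0.10). Slc2a5, a fructose transporter of microglia, fell by 1.06 in TLR4-/- and by 0.85 in wild type (SE 0.20 and 0.18). The transcription factor Sall1 fell by 0.73 in TLR4-/- and by 0.64 in wild type (SE 0.15 and 0.13), and the purine receptor P2ry13 by 0.52 in TLR4-/- and by 0.58 in wild type (SE 0.12 and 0.10). Whether the falls of these Siglecs share their source with that of the microglial markers was not tested.

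Border-associated macrophages, which line brain vessels and meninges and carry Siglec1, were followed through 10 genes. Of these 1, Cd209f, fell in TLR4-/- and 0 passed in wild type, and 0 rose. The median TLR4-/- minus wild-type difference of the list was -0.52 after I/R and -0.44 after sham, with 0 of 10 genes called. The scavenger receptor Mrc1 averaged 8.95 ± 0.64 in TLR4-/- I/R and 9.43 ± 0.43 in TLR4-/- sham arrays (SD, n = 3 each), against 9.49 ± 0.19 in wild-type I/R and 9.66 ± 0.21 in wild-type sham arrays (SD, n = 4 each). The part of these cells in the genotype differences of Siglec1 was not tested. Neutrophil genes had list means per array between 4.08 and 5.04 over all groups, with 5.04 on wild-type I/R array C. That array also had the highest monocyte and border-associated macrophage list means (6.72 and 7.66). In wild-type I/R, 2 of the 11 neutrophil genes had a group mean above background. Cxcr2 rose in wild type (0.54, limma adjusted p = 0.0436) while Csf3r fell in TLR4-/- (-0.55, limma adjusted p = 0.0472). Of 9 dendritic cell genes 1 fell, Cd209a in wild type (-1.33, limma adjusted p = 0.0102), and of 9 T and NK cell genes and 11 neuronal and glial genes 0 passed in either genotype, with 0 changes called between genotypes.

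All 13 measured interferon-stimulated genes of the 16 listed rose in both genotypes, with a list median of 3.65 in TLR4-/- and 2.17 in wild type. The list started lower in TLR4-/-, with sham means per array from 5.48 to 5.69, against 5.95 to 6.34 in wild type. After I/R they ran from 8.75 to 8.86 in TLR4-/- and from 7.69 to 8.85 in wild type. The median TLR4-/- minus wild-type difference was -0.60 after sham and 0.46 after I/R, with 0 genes called in either. Cxcl10 rose by 5.01 in TLR4-/- (SE 0.24) and by 4.28 in wild type (SE 0.21), Ifit2 by 4.18 in TLR4-/- (SE 0.29) and by 2.87 in wild type (SE 0.25), Ifit3 by 4.09 in TLR4-/- (SE 0.28) and by 2.17 in wild type (SE 0.24), Oasl2 by 3.77 in TLR4-/- (SE 0.28) and by 2.48 in wild type (SE 0.25), and Zbp1 by 3.66 in TLR4-/- (SE 0.27) and by 2.84 in wild type (SE 0.24). The difference between the changes had a list median of 0.83, and 0 of the 13 genes passed in it. Siglec1 changed by 1.13 in TLR4-/- and by 1.27 in wild type beside them, with a difference between the changes of -0.14 (95% interval -0.66 to 0.38).

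**Figure D5:**
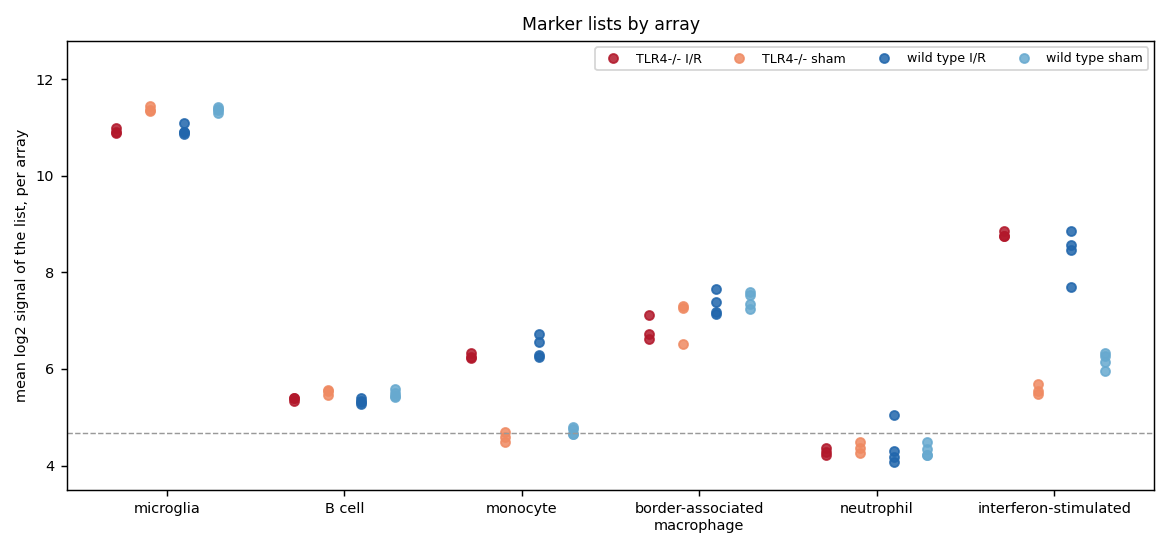
Mean log2 signal of 6 gene lists (vertical axis) on every array, by genotype and surgery, with the background level of 4.67 dashed. Monocyte and interferon-stimulated lists are higher on I/R arrays of both genotypes, microglial and B cell lists are slightly lower, and most neutrophil means lie below background.

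The genes whose signal followed that of Cd72 most closely were sought among 12532 other genes above background, as a description over 14 arrays that all share the division by surgery. They were the fibronectin gene Fn1 (Pearson r = 0.9895), the cyclin-dependent kinase subunit gene Cks1b (0.9881), the cell division gene Cdca3 (0.9875), the vimentin gene Vim (0.9873) and the topoisomerase gene Top2a (0.9864). Cd300lf was followed most closely by Anxa2 (0.9874), Myo1e (0.9802) and Rai14 (0.9796), and Siglec1 by Gm1966 (0.9716), Cd44 (0.9508) and Pclaf (0.9456). For Cd22 these were Nceh1 (0.9629), Jpt2 (0.9513) and H2-Q4 (0.9499).

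The same search was made for the other receptors. Siglece was closest to Fam120b (0.9617), Pecam1 (0.9575) and Adgrg1 (0.9573), Cd33 to Dock4 (0.9652), Pag1 (0.9646) and Cep68 (0.959), and Sirpa to Inpp5d (0.9725), Laptm5 (0.9692) and Ccnt2 (0.9568). The genes nearest to Cd200r1 (Cluap1 0.8079, Kdm5c 0.7997, Ttc4 0.7982) and to Pirb (Decr2 0.8401, Snap47 0.8396, Tmco3 0.7832) followed less closely. Among the receptors themselves, Cd72 and Cd300lf were the nearest pair (r = 0.967) and Siglece and Cd300lf the most opposed (r = -0.926), and these values too span the division by surgery.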

How the data were processed

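The authors deposited log2 values for every array row. Per the submitters' processing notes RMA and the oligo package were used, with no versions given, and no further normalization was applied here. Of 35556 rows, 21789 carried 1 gene symbol, 1621 several and 12146 were unnamed here. Symbols came from the platform annotation, updated through a RefSeq table of GRCm38.p6 (21698 rows matched), and the row with the highest mean stood for each of 19938 genes.

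The 4 groups' means were fitted over all 14 arrays together with lmFit and eBayes (limma 3.58.1, R 4.3.3, two-sided), as the series description names limma. P-values were adjusted by Benjamini-Hochberg over all genes, and an adjusted p under 0.05 was a call. The difference between the I/R changes is the TLR4-/- change minus the wild-type change. The fits were tested on simulated data. Alternatives were only the compared groups, trend and robust settings, array weights, centred arrays, no dim genes, other handling of several rows, the array letter as a block, TLR4-/- I/R array D and wild-type sham array C left out together, and each array left out. Arrays give no read depth, so precision rests on their number.

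The receptors and all 14 gene lists were chosen with earlier results of these data known. Named genes are the 9 receptors, from each list all called genes where 4 or fewer were called and otherwise the 4 with the smallest p, defining markers beside a result, and the 5 genes most like Cd72 and 3 most like each other receptor. Names outside this rule were added after the values were seen. Motifs were searched on both strands.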

Additional observations from a re-analysis of the deposited data

How the results depend on the processing

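Of the receptors' values under the alternatives, 1163 kept direction and call, 13 lost a call (Cd33 in each), 5 gained one (Sirpa in 4, Pirb in 1) and 43 changed sign, none of them a called value. The changes of Cd22, Siglec1, Siglece and Cd300lf after I/R kept direction and side of the threshold in both genotypes under all alternatives run, and Cd72 kept its direction. Of the 8 receptors other than Cd72, 4 to 5 were called in TLR4-/- and 4 to 5 in wild type as single arrays were left out. Genes called in TLR4-/- numbered 970 to 1888 (970 without sham array A, 1071 without I/R array C), and in the difference between the changes 0 to 1, against 1628 and 0 with all arrays. Where a setting moved a count, the cause was not tested.

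Between genotypes after I/R, 4 genes were called with all arrays, 0 to 5 as single arrays were left out, 0 with only the compared groups, 7 with array weights, 1 without dim genes and 0 without TLR4-/- I/R array D and wild-type sham array C. After sham 1 gene was called, against 0 to 10 as single arrays were left out, 0 with only the compared groups, 2 with trend and robust settings, 2 with array weights and 10 without TLR4-/- I/R array D and wild-type sham array C.

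The array letters were not taken to pair the samples. Over the 18 pairs of same-lettered arrays, deviations from the group means correlated between -0.0987 and 0.281, with 3 pairs above 0.1, and 3 of 8 wild-type arrays correlated best with their own letter. With the letter as a replicate block, 1522 genes were called in TLR4-/- and 2037 in wild type, with 5 of the 8 receptors in each, and 0 between genotypes after I/R and 2 after sham. Under the block the difference between the changes of Cd300lf was -0.0347, and the genotype differences after sham were -0.00552 for Cd200r1 and 0.0447 for Cd300lf.

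Uncalled values near 0 changed sign elsewhere. The wild-type change of Cd200r1 was -0.0124 with array weights, and the genotype difference of Sirpa after I/R with array weights was -0.00339. With centred arrays the genotype difference of Cd33 after sham was -0.00936, and after I/R that of Cd22 was -0.0106 and that of Sirpa -0.0314. Without TLR4-/- I/R array D and wild-type sham array C, the difference between the changes of Cd300lf was -0.18, its genotype difference 0.0699 after sham and -0.11 after I/R, and that of Sirpa after I/R -0.0364.

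As single arrays were left out, Pirb changed by -0.18 to 0.0803 after I/R in TLR4-/-, Pirb by 0.16 to 0.68 in wild type, and Cd200r1 by -0.0725 to 0.14 in wild type. The difference between the changes ran from -0.0532 to 0.18 for Cd22, -0.0446 to 0.42 for Cd300lf, -0.17 to 0.0115 for Cd33, -0.30 to 0.046 for Siglec1 and -0.0813 to 0.0177 for Sirpa. The genotype difference after I/R ran from -0.084 to 0.15 for Cd22, -0.14 to 0.0171 for Cd33, -0.0364 to 0.0625 for Sirpa and -0.11 to 0.36 for Cd300lf. After sham it ran from -0.14 to 0.0766 for Cd22, -0.0657 to 0.11 for Cd33, -0.039 to 0.14 for Cd200r1, -0.24 to 0.0699 for Cd300lf and -0.32 to 0.21 for Pirb. Cd300lf after sham lies in the background range, which limits its folds.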
